A study of Mus musculus with 36 samples.

Results

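The genes described here are *Itga8*, which encodes the α8 integrin subunit, *Npnt*, which encodes its matrix ligand nephronectin, and 7 further integrin subunit genes, *Itga3*, *Itga4*, *Itga6*, *Itga9*, *Itgav*, *Itgb1* and *Itgb5*. They are 9 of the 25760, 26863 and 26472 genes in the tables of wild-type, β-catenin and Tcf/Lef libraries, and were found by matching Ensembl identifiers to these symbols. All 9 were listed once in each table and all passed the filter of a mean of at least 10 normalized counts. RNA was sequenced from 36 libraries of mouse nephron progenitor cells (NPCs) from embryonic kidneys, cultured in the expansion medium NPEM with the GSK3 inhibitor CHIR99021 (CHIR), which stabilises β-catenin and so acts as a Wnt agonist. Wild-type NPCs were kept for 24 h in 0 µM (no CHIR), 1.25 µM (low CHIR) or 5 µM CHIR (high CHIR), with 3 libraries each. By the study's methods all cultures were seeded in low CHIR, so the cells with no CHIR had been exposed to it before.

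In a second set, NPCs with conditional β-catenin alleles (genotype B-catenin_c_c) received Cre mRNA (Cre cells) or none (no-Cre cells), and NPCs of Cas9-eGFP mice received guides against *Ctnnb1* (Ctnnb1-guide cells) or against GFP (24 h GFP-guide cells). These cells had 24 h in low CHIR for the knockout before their dose, with 2 libraries for each of the 8 combinations of treatment and dose. In the last set, Cas9-eGFP NPCs received guides against *Tcf7*, *Tcf7l1*, *Tcf7l2* and *Lef1* (the quadruple knockout, QKO) or against GFP (48 h GFP-guide cells), with 48 h for the knockout. This set held 3 libraries in each group except QKO in low CHIR, which held 2. All cells of the second and last sets, controls included, were thus held in low CHIR and transfected before their dose, and in the study's methods transfected cells were sorted by mCherry. The methods give Swiss Webster or C57Bl/6 mice as the source of the cells without tying a strain to a library, and Cas9 edits each cell separately, so the guide libraries hold mixtures of edited alleles. Nothing in the labels says that replicates came from separate litters, so p-values measure the spread between these libraries.

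Integrins are receptors made of an α and a β subunit that span the membrane and tie the extracellular matrix to the actin cytoskeleton. In the developing kidney α8β1 integrin is made by the mesenchyme around the ureteric bud, and nephronectin lies in the basement membrane of the bud. Mice without either gene have defects of ureteric bud invasion, and the pair is known to support *Gdnf* expression in the mesenchyme. The α3 and α6 subunits are found in laminin receptors. The α4 and α9 subunits bind fibronectin, VCAM1, osteopontin or tenascin C, and αv binds vitronectin and other ligands with an RGD motif, with β5 as one of its partners. The β1 subunit pairs with α8, α3, α4, α6, α9 and αv.

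In the GENCODE vM21 annotation of GRCm38, *Itga8* (ENSMUSG00000026768) lies on the minus strand of chromosome 2 from 12106632 to 12301922, and *Npnt* (ENSMUSG00000040998) on the minus strand of chromosome 3 from 132881745 to 132950291. *Itga6* (71745616 to 71858416), *Itga4* (79255426 to 79333123) and *Itgav* (83724397 to 83806916) also lie on chromosome 2, all on the plus strand. *Itga3* lies on chromosome 11 from 95044474 to 95076801, *Itga9* on chromosome 9 from 118606690 to 118901003, *Itgb1* on chromosome 8 from 128685654 to 128733200 and *Itgb5* on chromosome 16 from 33829665 to 33949338. Of the exon bases of *Itga8*, 372 (5.05%) are shared with *E030013I19Rik*, an antisense gene that starts within the first part of *Itga8* (12300946 to 12312315). Likewise 1124 exon bases of *Itga4* (8.04%) are shared with *Cerkl* on the opposite strand, and 634 of *Itgav* (5.90%) with *Gm13684*. The methods state that only unambiguous reads with a unique alignment were counted. The same methods describe adapters ligated to sonicated double-stranded cDNA and name no step that keeps the strand. Reads from opposite strands may therefore not be separable in these stretches. Whether strand was used in counting is not given in the sources used here. It cannot be told whether reads from these stretches were assigned or dropped.

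RefSeq promoter windows on GRCm38.p6, from 250 bases before to 50 bases after a start site, were at hand for 8 of the 9 genes (10 windows). They are shown for *Itga8* and *Itga3* only, 5′ to 3′ along the gene, with any Tcf/Lef core motif in capitals. The motif searched was CTTTGA or CTTTGT on either strand (TCAAAG or ACAAAG), and it occurred in 31.2% of all 32851 windows. Among the 10 windows here 2 held it, both with CTTTGT, namely the downstream start of *Itga3* (bases 195 to 200 of the window) and *Itgb1* (bases 166 to 171). The *Itga8* window is chr2:12301895-12302194 (minus strand), the downstream *Itga3* window chr11:95069149-95069448 (minus strand) and the upstream *Itga3* window chr11:95076665-95076964 (minus strand).
Itga8: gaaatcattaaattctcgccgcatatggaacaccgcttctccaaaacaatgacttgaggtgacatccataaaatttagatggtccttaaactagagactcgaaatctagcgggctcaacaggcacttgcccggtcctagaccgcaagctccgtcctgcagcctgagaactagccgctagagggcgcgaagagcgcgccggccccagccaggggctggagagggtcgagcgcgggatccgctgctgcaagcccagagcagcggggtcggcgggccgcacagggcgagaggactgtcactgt
Itga3, downstream start: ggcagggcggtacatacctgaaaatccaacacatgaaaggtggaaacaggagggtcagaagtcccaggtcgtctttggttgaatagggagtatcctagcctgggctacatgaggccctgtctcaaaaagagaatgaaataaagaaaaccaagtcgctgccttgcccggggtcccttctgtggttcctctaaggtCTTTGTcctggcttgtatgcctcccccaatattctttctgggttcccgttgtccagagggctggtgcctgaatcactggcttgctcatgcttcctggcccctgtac
Itga3, upstream start: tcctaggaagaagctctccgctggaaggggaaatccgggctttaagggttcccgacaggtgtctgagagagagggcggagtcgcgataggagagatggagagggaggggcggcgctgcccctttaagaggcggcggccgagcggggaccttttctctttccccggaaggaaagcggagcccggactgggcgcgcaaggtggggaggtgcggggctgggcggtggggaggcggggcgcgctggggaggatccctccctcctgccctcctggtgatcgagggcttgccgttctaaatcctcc

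The libraries held 13089780 to 76071568 recovered reads on genes. Summed levels of 9 nephron progenitor markers were 15500.3 to 36281 normalized counts over the libraries in no or low CHIR, and the summed stroma, ureteric, endothelial and blood markers are given beside the results in which any of them was called, and for β-catenin removal in high CHIR. Stroma sums are also given for QKO in high CHIR. In high CHIR, replicate 3 of the wild-type cells stood apart from the other libraries, with 1027 summed counts of ureteric markers against 6022 and 5733. Results of the 9 genes that rest on it are given without it. Those of the gene lists and markers were not refitted without it. *Ctnnb1* had 1039.6 to 1652 counts in Ctnnb1-guide cells against 2521 to 3397 in 24 h GFP-guide cells. In Cre cells it had 2254 to 3085 against 2207 to 3880.1 in no-Cre cells, so counts over the whole gene do not show the Cre deletion. *Lef1*, a Wnt target, had 102 to 161 counts in Cre cells in high CHIR against 1090 and 1568 in no-Cre cells. Among the QKO targets in high CHIR *Tcf7* had 110, 179.7 and 127 counts in QKO cells and 534, 535 and 268 in 48 h GFP-guide cells. *Lef1* had 255, 441 and 513 against 1504, 2743 and 1144. The counts of *Tcf7l2*, at 999, 1616 and 1481 against 1263, 2233 and 1750.0, overlapped. So did those of *Tcf7l1*, at 602, 539 and 736 against 612, 486 and 591. RNA counts do not measure the protein, whose loss the study assessed by staining.

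**Figure D1:**
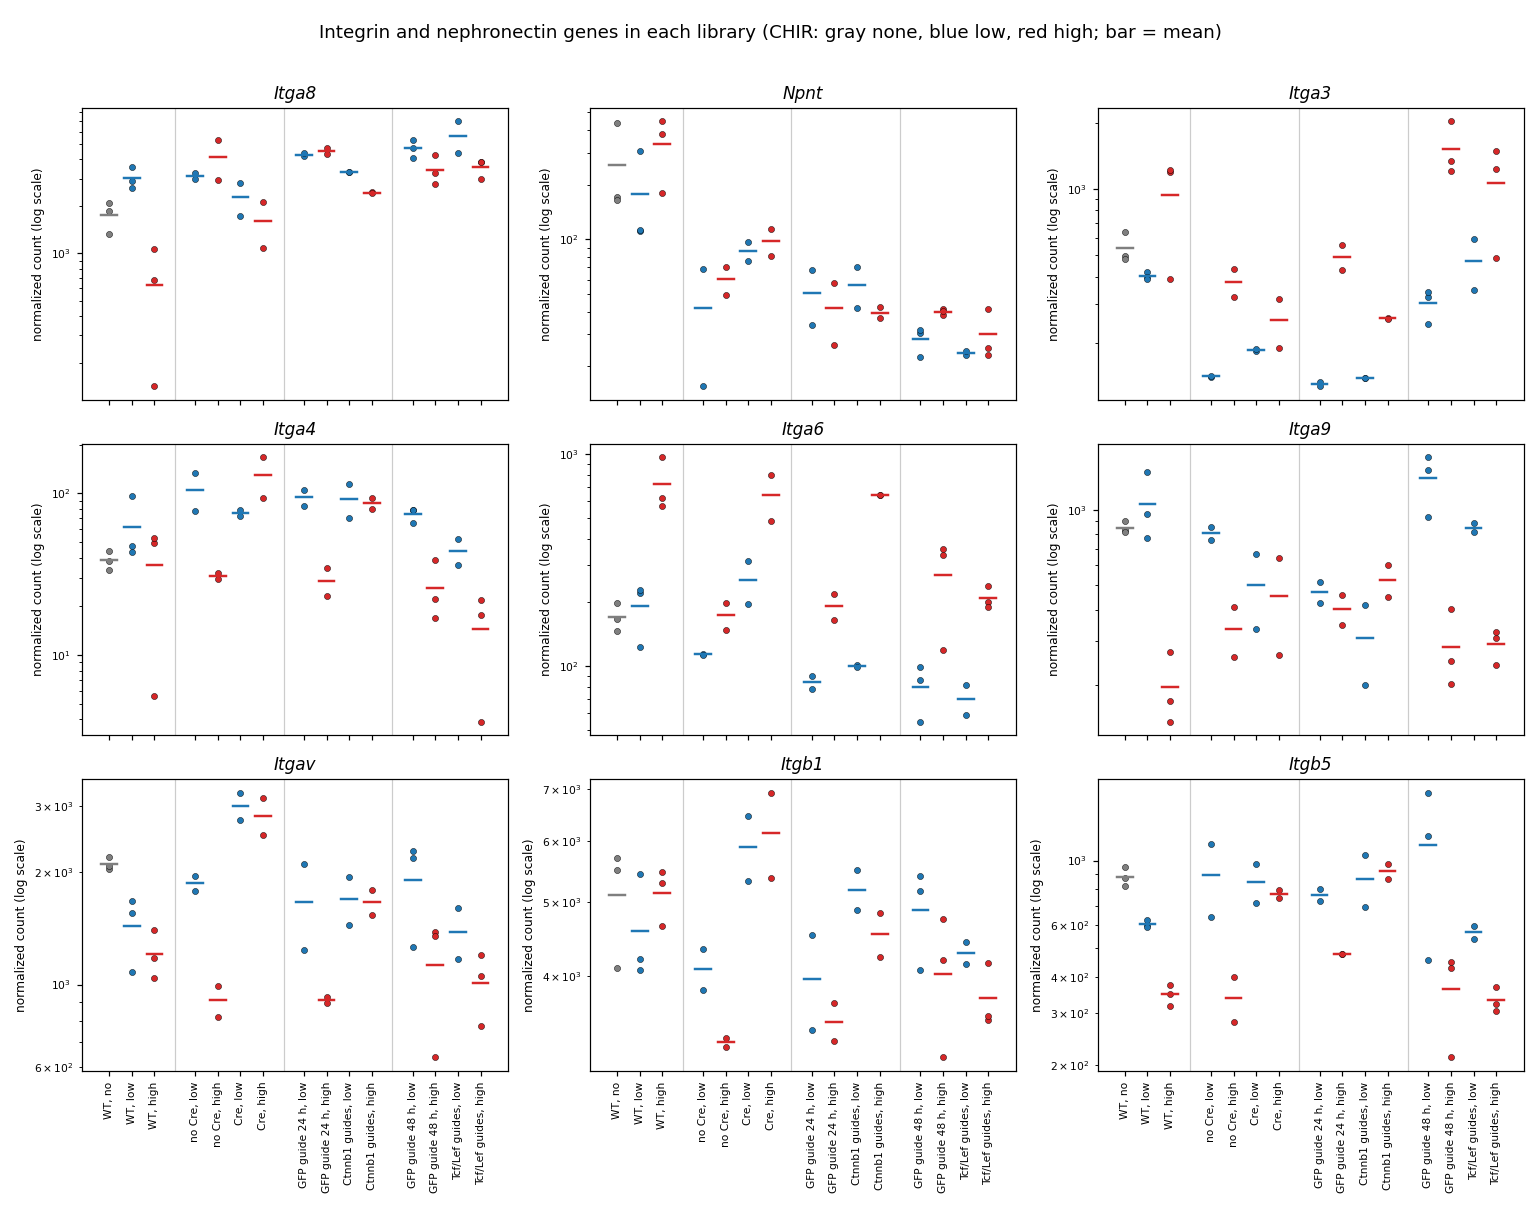
Normalized count (log scale) of each of the 9 genes in each of the 36 libraries, by group along the horizontal axis. Points are libraries, bars are group means, and color is the CHIR dose. *Itga8* is lowest in wild-type high CHIR (142 to 1066), while *Itga6* is highest there and after removal of β-catenin in high CHIR.

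Compared per length, as normalized counts per kb of exon, *Itgb1* was the most abundant of the 9 in each of the 15 groups. In wild-type NPCs in low CHIR it had 1122 per kb (999 to 1333 over 3 libraries). *Itga8* came next with 412 per kb (355 to 483), and its libraries did not overlap those of the subunits on either side. *Itgb5* (171 per kb), *Itga9* (137) and *Itgav* (134) followed and overlapped in that order. *Itga3* had 70.6 per kb, *Npnt* 35.2 and *Itga6* 21.2, the last 2 overlapping, and *Itga4* was lowest with 4.45. *Itga8* was thus the most abundant α subunit of those compared in low CHIR.

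In wild-type high CHIR the order of these levels differed. *Itga8* had 85.1 per kb (19.3 to 145), overlapping *Itgb5* (97.9 per kb) above it and *Itga6* (79.9 per kb) below it. *Itga3* had the highest mean of the α subunits there with 164 per kb, but its range of 68.4 to 214 overlapped that of *Itgav* (96.8 to 130.1). In all 12 groups of the transfected sets but one, *Itga8* had the second highest mean of the 9 per length. In Cre cells in low CHIR its libraries (237 to 382 per kb) overlapped those of *Itgav* (256 to 304). The exception was Cre cells in high CHIR, where *Itgav* had 263 per kb and *Itga8* 218 with overlapping libraries.

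**Figure D2:**
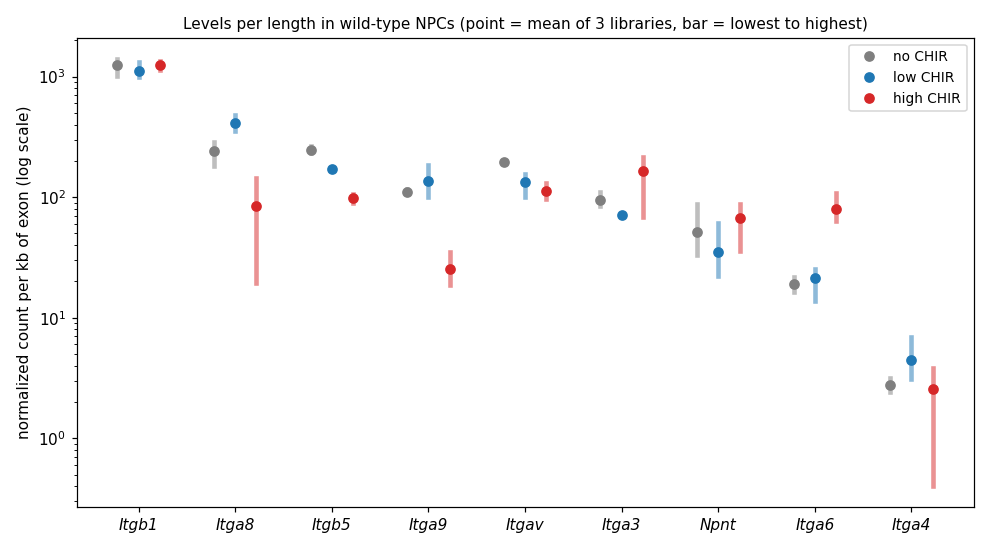
Normalized count per kb of exon (log scale) for the 9 genes in wild-type NPCs, ordered by the level in low CHIR. Points are means of 3 libraries and bars run from the lowest to the highest library. *Itga8* moves from 412 per kb in low CHIR to 85.1 in high CHIR, and *Itga6* from 21.2 to 79.9.

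The first comparison asked how the integrin genes of wild-type NPCs differ between the dose used for self-renewal and the dose that induces differentiation. *Itga8* and *Itga9* fell to a fraction of their level in high CHIR, *Itgb5* fell less, and *Itga6* rose. In all, 4 of the 9 genes passed an adjusted p of 0.05 with a log2 fold change of at least 0.5 (limma with Benjamini-Hochberg adjustment), termed called from here on, against 10.4% of all 17411 genes tested. The median log2 fold change of the 9 genes was -0.24, and that of all genes was 0.01.

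*Itga8* had 2619, 2921 and 3558 normalized counts in low CHIR and 1066, 674 and 142 in high CHIR. The groups did not overlap, and the high CHIR libraries themselves spread widely. Its log2 fold change (log2FC) was -2.68, with an SE of 0.58 (adjusted p = 0.0146). Without high CHIR replicate 3 the change was -1.83 (adjusted p = 0.000947), and without high CHIR replicate 1 it was -3.28 (adjusted p = 0.00497). The call was lost without low CHIR replicate 2 (adjusted p = 0.0514), without low CHIR replicate 3 (adjusted p = 0.0641) and when only these 6 libraries were fitted (adjusted p = 0.0512).

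*Itga9*, the tenascin C and osteopontin receptor subunit, had 965, 775 and 1417 counts in low CHIR and 174, 272 and 143 in high CHIR. No library of one group reached the other, and the log2FC was -2.42 (SE 0.27, adjusted p = 0.000362). *Itgb5*, the partner of αv, had 603, 624 and 592 counts in low CHIR and 317, 350.4 and 376 in high CHIR, log2FC -0.80 (SE 0.14, adjusted p = 0.00451). Replicates of *Itgb5* lay close together in both groups. *Itga6*, the laminin receptor subunit, had 222, 229 and 123 counts in low CHIR and 573, 621 and 970.2 in high CHIR. It rose in every library, with log2FC 1.92 (SE 0.29, adjusted p = 0.00216). The calls of *Itga9*, *Itgb5* and *Itga6* held without any single library.

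*Itga3* had 420.5, 398 and 390.4 counts in low CHIR and 1197, 1223 and 391 in high CHIR. Replicate 3 in high CHIR lay at the low CHIR level, and the log2FC of 1.04 (SE 0.37) was not called (adjusted p = 0.108). Without that library it was 1.58 (adjusted p = 0.000199). *Itga4* likewise had 49.3, 53.0 and 5.61 counts in high CHIR, against 43.4, 47.5 and 95.8 in low CHIR, and was not called (log2FC -1.18, adjusted p = 0.356). Its estimate rested on replicate 3 and was -0.18 without it (adjusted p = 0.841). *Itgav* (adjusted p = 0.463) and *Itgb1* (adjusted p = 0.564) had log2FC values of -0.24 and 0.17. *Npnt* had 307, 111 and 113 counts in low CHIR and 379, 180.1 and 445 in high CHIR, which overlap, with log2FC 0.99 (95% interval -0.15 to 2.12, adjusted p = 0.268).

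Markers of other cells moved with this comparison. Ureteric markers went from a sum of 449 to 841 counts in low CHIR to 1027 to 6022 in high CHIR, of which *Gata3* made 623 to 4283 and was the 1 of 5 tested that was called, while *Ret* had at most 5.99 and *Elf5* at most 3.80 counts and *Wnt9b* was not listed. Endothelial markers went from 308 to 359 to a range of 476 to 1223, with *Tek* the 1 of 4 tested that was called, while *Cdh5* and *Tie1* had at most 15.8 and 1.198 counts. Stroma markers summed to 9943 to 15778 and 3152 to 10576, with 1 of 7 tested lower, and blood markers to at most 69.6. Nephron progenitor markers fell, with 8 of 9 called, and early nephron markers rose, with 4 of 5 called. In bulk RNA fewer cells of a type and less RNA per cell cannot be told apart, and the part of these cells in the integrin results was not tested.

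The second comparison set no CHIR against low CHIR, that is, cells from which CHIR was withdrawn after seeding against cells kept in it. None of the 9 genes was called by limma, 2 had an unadjusted p under 0.05, and 4.97% of all genes were called. By edgeR 1 was called and by DESeq2 2. *Itgb5* had 950.3, 821 and 872 counts with no CHIR, all above low CHIR, log2FC 0.54 (SE 0.14, adjusted p = 0.0526), and it was the gene that edgeR called (adjusted p = 0.0371). *Itgav* had 2194, 2037 and 2077 counts with no CHIR against 1549, 1081 and 1676, log2FC 0.57 (adjusted p = 0.0944). The libraries of *Itgav* did not overlap. *Itga8* had 2113, 1336 and 1861 counts with no CHIR, all below low CHIR, log2FC -0.79 (95% interval -2.07 to 0.49, adjusted p = 0.461). Its mean level was thus highest in low CHIR of the 3 doses.

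High against no CHIR called 5 of the 9 genes, against 23.4% of all genes. The comparisons of the 3 doses share libraries, so their values are set side by side only. The log2FC was -1.34 for *Itgb5* (SE 0.14, adjusted p = 0.000122), -2.16 for *Itga9* (adjusted p = 0.000359), -0.81 for *Itgav* (adjusted p = 0.00869) and -1.89 for *Itga8* (adjusted p = 0.0371), and it was 2.04 for *Itga6* (adjusted p = 0.00075). *Itgb5* was ordered by dose in every library, from at least 821 with no CHIR through 592 to 624 in low CHIR to at most 376 in high CHIR. *Itga8* was the least stable of the 5. Its adjusted p was 0.0990, 0.0630 and 0.106 without no CHIR replicates 1, 2 and 3, 0.0614 by edgeR and 0.0894 with these 6 libraries alone, and without high CHIR replicate 3 its change was -1.04 (adjusted p = 0.0116). Stroma markers summed to 6269 to 27278 counts with no CHIR and 3152 to 10576 in high CHIR, with *Dcn* and *Foxd1* of 7 tested called lower, and blood markers to 48.03 to 102 and 17.9 to 29.9, with *Tyrobp* of 3 called lower. Ureteric markers summed to 561 to 1177 and 1027 to 6022, with *Gata3* of 5 called higher, and endothelial markers to 386 to 537 and 476 to 1223, with *Tek* of 4 called higher. The part of these cells was not tested.

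The same doses were compared in transfected controls with intact β-catenin, in 3 sets of cells. *Itga3* rose in all of them. In no-Cre cells it had 141 and 143 counts in low CHIR and 433 and 325 in high CHIR (log2FC 1.39, SE 0.26, adjusted p = 0.00356). In 24 h GFP-guide cells it had 134 and 128 against 558 and 431 (1.90, SE 0.26, adjusted p = 0.000412). In 48 h GFP-guide cells it had 323, 341 and 246 against 1337, 2026 and 1205 (2.30, SE 0.37, adjusted p = 0.00136). The groups were apart in each set, and leaving out a single library ended the call for no-Cre cells only, without high CHIR replicate 1 (adjusted p = 0.0513).

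*Itga8* did not fall to the wild-type extent in any of these controls. It had 2973 and 3261 counts in low CHIR and 5293 and 2928 in high CHIR in no-Cre cells (log2FC 0.34, 95% interval -0.33 to 1.01). In 24 h GFP-guide cells it had 4161 and 4347 against 4680.5 and 4326 (0.08, interval -0.59 to 0.75). In 48 h GFP-guide cells it had 5274, 4717 and 4047 against 3269, 2756 and 4237 (-0.47, interval -0.91 to -0.02, adjusted p = 0.153). The libraries overlapped in each of the 3 sets, and in none did the interval reach the wild-type log2FC of -2.68 or its bound of -1.40. The tables were normalized separately and the difference between them was not tested. Wild-type and transfected cells also differ in transfection, sorting and the time in low CHIR, so a source of the difference cannot be told apart.

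In no-Cre cells 4 of the 9 genes were called, against 8.05% of all 16780 genes tested. Besides *Itga3*, *Itga4* had 77.7 and 133 counts in low CHIR and 29.5 and 32.2 in high CHIR (log2FC -1.69, SE 0.39, adjusted p = 0.0163). *Itgav* had 1777 and 1952 against 821 and 994 (-1.04, SE 0.24, adjusted p = 0.0138), and *Itgb5* 1137 and 641 against 398 and 279 (-1.36, SE 0.28, adjusted p = 0.0073). All of these fell in both libraries. Calls here depended on single libraries. *Itga4* was lost without high CHIR replicate 1 (adjusted p = 0.0939), high CHIR replicate 2 (0.0620) or low CHIR replicate 2 (0.0908), *Itgav* without high CHIR replicate 1 (0.116), low CHIR replicate 1 (0.0531) or low CHIR replicate 2 (0.0555), and *Itgb5* without high CHIR replicate 2 (0.0768) or low CHIR replicate 1 (0.0928). With these 4 libraries fitted alone the adjusted p was 0.0523 for *Itga3*, 0.133 for *Itga4* and 0.0778 for *Itgb5*.

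In 24 h GFP-guide cells 3 of the 9 genes were called, against 7.51% of all genes. *Itga4* fell from 105 and 83.3 counts to 23.2 and 34.5 (log2FC -1.69, SE 0.39, adjusted p = 0.0181). *Itga6* rose from 77.5 and 89.8 to 218 and 165 (1.17, SE 0.29, adjusted p = 0.0273). Neither was called by edgeR (adjusted p = 0.126 and 0.132) or DESeq2 (0.0764 and 0.0744) on recovered reads, from which low CHIR replicate 1 was left out. For *Itga6* the adjusted p was 0.0505 with these 4 libraries alone, 0.207 and 0.0706 without high CHIR replicates 1 and 2, and 0.163 and 0.0809 without low CHIR replicates 1 and 2. For *Itga4* it was 0.150 without high CHIR replicate 1, and 0.133 and 0.0610 without low CHIR replicates 1 and 2. *Itgav*, at 1238 and 2096 against 926 and 892 counts, and *Itgb5*, at 726 and 797 against 477 and 478, had non-overlapping groups but were not called (adjusted p = 0.0502 and 0.182). *Itgav* was called by edgeR (adjusted p = 0.0127) and without low CHIR replicate 1 (-1.20, adjusted p = 0.012).

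In 48 h GFP-guide cells 4 of the 9 genes were called, against 14.9% of all 15878 genes tested. *Itga9* fell from 1622, 1446 and 935 counts to 401, 249.8 and 202 (log2FC -2.25, SE 0.26, adjusted p = 0.00015). *Itga6* rose from 99.1, 85.9 and 54.5 to 356, 336 and 119 (1.63, SE 0.38, adjusted p = 0.0128), and *Itgb5* fell from 1709, 1213 and 457 to 451, 428 and 212 (-1.51, SE 0.41, adjusted p = 0.0271). Replicate 3 held the lowest count of these 3 genes in both doses. Stroma markers also differed by replicate in this set, with sums of 7514, 1933 and 293 in low CHIR and 3131, 636 and 257 in high CHIR, and blood markers reached 295 in high CHIR replicate 1 against at most 25.7 in the other control libraries. Ureteric markers summed to 30.6 to 81.9 counts in low and 257 to 677 in high CHIR, with 2 of 3 tested called higher, *Gata3* among them. Endothelial markers summed to 224 to 268 and 265 to 343, with *Tek* of 3 called higher. The part of these cells was not tested. *Itga4* fell from 78.3, 79.0 and 65.7 to 22.3, 38.4 and 17.0 counts without being called (-1.56, adjusted p = 0.0669). With the replicate number as a block, which pairs the libraries of this set, *Itga4* (adjusted p = 0.0147) and *Itgav* (log2FC -0.80, adjusted p = 0.00191 against 0.115) were called as well. *Itga6* was lost without high CHIR replicate 2 (adjusted p = 0.0635), and *Itgb5* with these groups alone (0.0817), without high CHIR replicate 2 (0.0505) or 3 (0.0982), or without low CHIR replicate 1 (0.112) or 2 (0.104).

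Side by side, the log2FC values of *Itga9* were -1.30 in no-Cre cells (adjusted p = 0.0976) and -0.24 in 24 h GFP-guide cells (adjusted p = 0.805), so a call was made in 2 of the 4 sets of intact cells. The direction of *Itga3* and *Itga6* was upward, and that of *Itga4*, *Itgav*, *Itga9* and *Itgb5* downward, in all 4 sets, with and without a call. For *Itga4* the wild-type value rested on high CHIR replicate 3. *Itgb1*, the common partner subunit, was not called in any of them, and its log2FC values ran from -0.31 to 0.17. *Npnt* was not called in any either, at 15.5 to 70.5 counts in the controls with 24 h and 22.5 to 41.2 in those with 48 h.

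**Figure D3:**
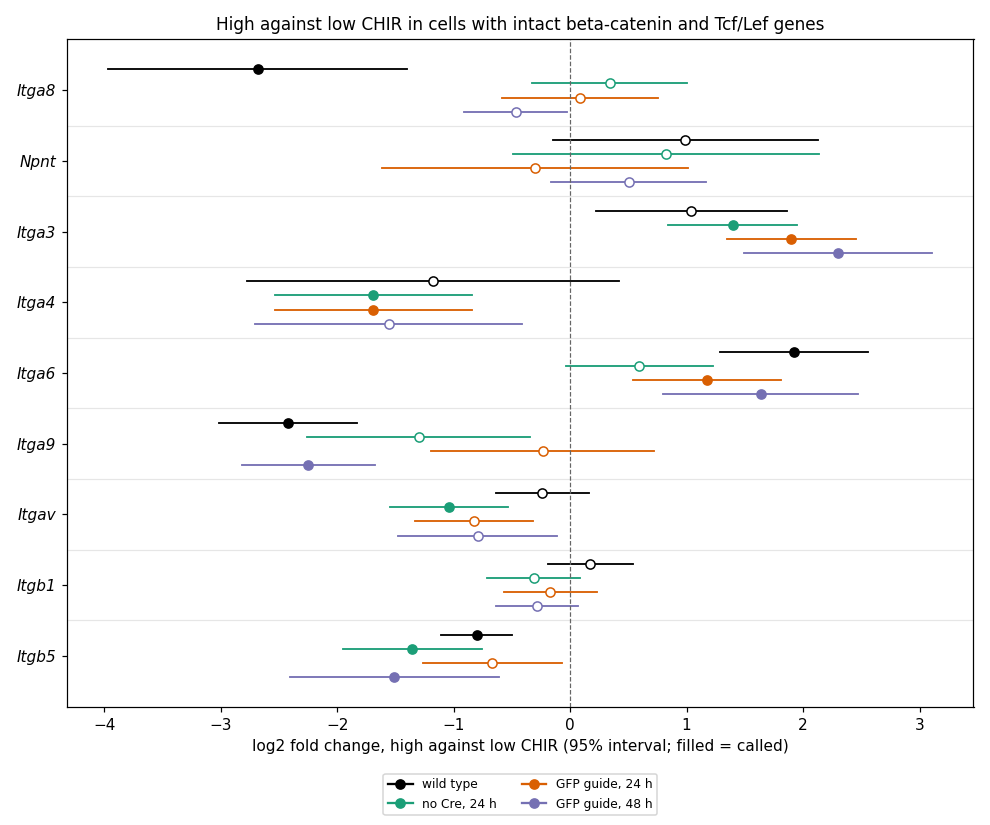
Log2FC of high against low CHIR (horizontal axis) for each gene in wild-type NPCs and 3 sets of transfected controls. Points are limma estimates, lines are 95% intervals, and filled points are called. *Itga8* lies at -2.68 in wild-type cells and between -0.47 and 0.34 in the controls, whereas *Itga3* and *Itga6* lie right of 0 in each set.

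Removal of β-catenin was examined next, first in low CHIR. None of the 9 genes was called by limma with Cre, where 4 had an unadjusted p under 0.05 and 0.328% of all genes were called, or with Cas9, where none had an unadjusted p under 0.05 and 0.0536% of all genes were called. edgeR called none in either system, and DESeq2 called 1 with Cre and none with Cas9. The gene DESeq2 called was *Itga6*, which had 314 and 196 counts in Cre cells and 114 and 113 in no-Cre cells (log2FC 1.12, SE 0.29, limma adjusted p = 0.152, DESeq2 adjusted p = 0.0138). In Ctnnb1-guide cells *Itga6* had 101 and 99.2 counts against 77.5 and 89.8 (log2FC 0.26, 95% interval -0.38 to 0.89). *Itga8* had 2814 and 1746 counts in Cre cells against 2973 and 3261, and 3302 and 3315 in Ctnnb1-guide cells against 4161 and 4347. It was lower in every library of both systems, with log2FC of -0.49 (interval -1.16 to 0.18) and -0.36 (interval -1.03 to 0.31), neither past the threshold. Of the 9 genes, 7 had groups apart with Cre in low CHIR and 5 with Cas9, though none was called. The share of all genes with groups apart was not computed. With 2 libraries a group, being apart is thus a description only, here and in high CHIR.

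In high CHIR, removal of β-catenin by Cre called 6 of the 9 genes, against 8.65% of all genes, and 5 of them were higher. Of all genes 5.9% were called higher and 2.75% lower. *Itga6* had 798 and 483 counts in Cre cells against 148 and 199 in no-Cre cells (log2FC 1.85, SE 0.29, adjusted p = 0.00127). *Itgav* had 2504 and 3156 against 821 and 994 (1.64, SE 0.24, adjusted p = 0.000609). *Itga4* had 168 and 93.5 against 29.5 and 32.2 (1.99, SE 0.39, adjusted p = 0.00563). *Itgb5* had 795 and 746 against 398 and 279 (1.21, SE 0.28, adjusted p = 0.0144), and *Itgb1* had 5363 and 6925 against 3240.2 and 3333 (0.89, SE 0.19, adjusted p = 0.00793). The groups were apart for each of them. *Itga8* was the gene called lower, with 2128 and 1088 counts against 5293 and 2928 (-1.37, SE 0.31, adjusted p = 0.0133).

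The calls of *Itga6* and *Itgav* held in every fit with Cre. *Itga8* was lost without no-Cre replicate 1 (-0.94, adjusted p = 0.151), without Cre replicate 2 (-0.89, adjusted p = 0.138) and with these 4 libraries alone (0.147). *Itgb1* was lost without the same libraries (adjusted p = 0.0538 and 0.0845), and *Itgb5* without no-Cre replicate 2 (0.132) or Cre replicate 1 (0.0756) or 2 (0.0585). *Itga4* was lost without Cre replicate 1 (0.0676). Under edgeR, where Cre replicate 1 was left out, *Itga4* (0.0839) and *Itgb5* (0.0867) were not called, and with these 4 libraries alone neither were *Itga4* (0.073), *Itgb1* (0.0827) and *Itgb5* (0.061).

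With Cas9 2 of the 9 genes were called in high CHIR, against 5.09% of all genes. *Itga6* had 645 and 643 counts in Ctnnb1-guide cells and 218 and 165 in 24 h GFP-guide cells (log2FC 1.76, SE 0.29, adjusted p = 0.00356). *Itga4* had 93.0 and 80.1 against 23.2 and 34.5 (1.57, SE 0.39, adjusted p = 0.0359). Both rose in each library, *Itga6* to more than the highest count of its controls at either dose. *Itga4* was lost when any of the 4 libraries was left out (adjusted p from 0.101 to 0.221), and *Itga6* without GFP-guide replicate 2 (0.0624). *Itga8* had 2466 and 2424 counts against 4680.5 and 4326, groups well apart, with log2FC -0.88 (SE 0.31, adjusted p = 0.129). *Itgav* (0.87, adjusted p = 0.0516), *Itgb5* (0.94, adjusted p = 0.0704) and *Itga3* (-0.91, adjusted p = 0.0584) were near the threshold without passing it. DESeq2 and the fit of these 4 libraries alone each called 6 of the 9, *Itga8*, *Itga3*, *Itgav* and *Itgb5* besides the 2, and edgeR called 4.

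*Itga6* thus had its highest counts outside wild-type high CHIR after removal of β-catenin in high CHIR. In the study's staining β-catenin was reduced rather than absent after removal. High CHIR also raised *Itga6* in intact cells, with a call in each set but no-Cre cells (log2FC 0.59, adjusted p = 0.251). The high CHIR controls enter both comparisons, so the 2 log2FC values were not related to each other. Within Cre cells *Itga6* had 314 and 196 counts in low and 798 and 483 in high CHIR, and within Ctnnb1-guide cells 101 and 99.2 in low and 645 and 643 in high CHIR. Counts after removal in high CHIR were also set beside those of intact cells in low CHIR, within each system. *Itga4* overlapped in both, with 168 and 93.5 in Cre cells against 77.7 and 133, and 93.0 and 80.1 in Ctnnb1-guide cells against 105 and 83.3. *Itgav* was higher in Cre cells (2504 and 3156 against 1777 and 1952) and overlapped in Ctnnb1-guide cells (1794 and 1534 against 1238 and 2096). *Itgb5* overlapped in Cre cells (795 and 746 against 1137 and 641) and was higher in Ctnnb1-guide cells (974 and 864 against 726 and 797). *Itga3* had 325 to 558 counts in intact high CHIR, 191 to 318 after removal and 128 to 143 in intact low CHIR, ranges that do not overlap, and its removal effect was not called in either system.

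Whether the effect of removal differed between the doses was tested as an interaction. None of the 9 genes was called by limma for Cre (4 with an unadjusted p under 0.05, background 0.995%) or Cas9 (4 with an unadjusted p under 0.05, background 0.518%). edgeR called none in either, and DESeq2 called 1 with Cre (*Itga8*, adjusted p = 0.0464) and none with Cas9. The largest estimate was that of *Itga4* with Cre, 2.42 on the log2 scale (SE 0.55, adjusted p = 0.0654), which passed without Cre replicate 2 in high CHIR (2.84, adjusted p = 0.0466). With Cas9 it was 1.63 (adjusted p = 0.447), and for *Itga6* the 95% interval was 0.60 to 2.40 (adjusted p = 0.245).

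The nephron progenitor markers moved with removal in high CHIR, from summed counts of 8437 to 11453 in intact to 18199 to 23918 in Cre and Ctnnb1-guide cells, with 7 and 6 of 9 called higher and 1 lower. Early nephron markers went from 16414 to 22188 down to 2467 to 5817, with 4 of 4 tested called lower in both systems. Stroma markers summed to 6467 and 11817 in Cre cells against 3648 and 4863 in no-Cre cells, which do not overlap. In Ctnnb1-guide cells they summed to 18049.7 and 11365 against 12717 and 3724 in GFP-guide cells, which overlap, and none of 7 tested was called in either system. Ureteric, endothelial and blood marker sums were at most 331, 507 and 23.9 counts in these high CHIR groups. Their part in the integrin results was not tested.

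In QKO cells none of the 9 genes was called in low CHIR (0.0063% of all genes called) or in high CHIR (2.54%), and none had an unadjusted p under 0.05 in either. edgeR and DESeq2 called none as well. The estimates and intervals below come from fits that do not pair libraries by replicate number. Pairing them raised the number of genes called over all genes. The counts among the 9 are not among those listed as moved in the closing section. *Itga8* had 6961 and 4349 counts in QKO cells in low CHIR against 5274, 4717 and 4047 in controls (log2FC 0.24, 95% interval -0.25 to 0.74). Its high CHIR libraries had 3851, 3006 and 3853 counts against 3269, 2756 and 4237 (0.07, interval -0.37 to 0.52). Both pairs of groups overlapped. The interval in high CHIR did not reach the estimates of β-catenin removal, -0.88 with Cas9 and -1.37 with Cre. Those had intervals of -1.55 to -0.21 with Cas9, which overlaps that of QKO, and -2.04 to -0.70 with Cre. They come from another table and shorter knockout, and the difference was not tested. *Itga6* had 199.9, 239.9 and 191 counts in QKO cells in high CHIR against 356, 336 and 119 (-0.21, interval -1.05 to 0.62). *Itga4* had 21.7, 17.7 and 3.86 against 22.3, 38.4 and 17.0 (interval -2.15 to 0.15), and *Itga3* 488, 1484 and 1231 against 1337, 2026 and 1205 (-0.62, interval -1.43 to 0.19). The interaction of QKO with dose called none of the 9 (background 0.126%, 1 with an unadjusted p under 0.05), also by edgeR and DESeq2. In high CHIR 7 of 9 nephron progenitor markers were called higher in QKO cells. Early nephron markers summed to 5810 to 11465 against 17361 to 31080 counts, with 0 of 5 called. Stroma markers summed to 595 to 7335 against 257 to 3131, with 0 of 6 tested called. The part of these cells was not tested.

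*Npnt* was not called in any of the 15 comparisons. Its counts in the transfected sets were 15.5 to 114, with the highest mean in Cre cells in high CHIR (80.8 and 114). In Cre cells in low CHIR it had 75.5 and 96.6 against 15.5 and 68.7 in no-Cre cells, log2FC 1.35 (95% interval 0.03 to 2.66, adjusted p = 0.452). At these counts only large changes could have been detected. The wild-type libraries held more, 111 to 445, in a separately normalized table.

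**Figure D4:**
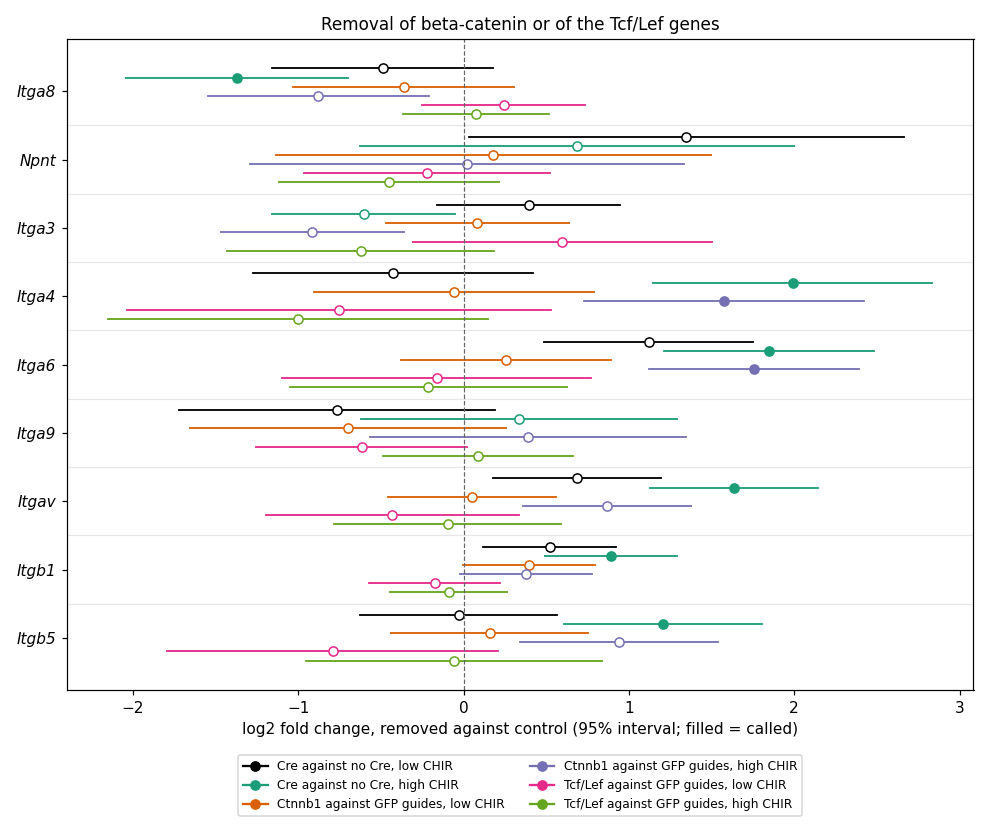
Log2FC of removal against control (horizontal axis) for each gene, for Cre and Cas9 removal of β-catenin and for the Tcf/Lef knockout at both doses. Points are limma estimates, lines are 95% intervals, and filled points are called. Filled points occur in high CHIR only, and *Itga6* has 1.85 with Cre and 1.76 with Cas9.

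Ligands and matrix partners of these integrins were examined as a list of 15 genes, of which 13 could be tested in the wild-type and β-catenin tables and 12 in the Tcf/Lef table. In wild-type high against low CHIR 3 of 13 rose and 2 fell, against 10.4% of all genes called (list median 0.22, all genes 0.01). *Egfl6*, which encodes a basement membrane ligand of α8β1, rose from a mean of 8.91 to 1746 counts (log2FC 5.49, SE 1.22, adjusted p = 0.0171). Its SE is wide, so the mean counts alone do not show the size of the rise. *Frem2*, a Fraser complex gene, rose from 486 to 2582 (2.43, adjusted p = 0.00181). *Frem1* of the same complex (log2FC -3.49, adjusted p = 0.000382) and *Tnc*, tenascin C (-1.73, adjusted p = 0.0067), fell. Laminin β1 (*Lamb1*) rose by 0.95 in wild-type cells, by 2.48 in no-Cre cells, by 2.38 in 24 h and by 2.43 in 48 h GFP-guide cells, called each time. *Tnc* and *Frem1* were likewise called lower, and *Frem2* higher, in each of these 4 sets. In no-Cre cells 2 of 13 rose and 2 fell (8.05% of all genes called), in 24 h GFP-guide cells 3 of 13 rose and 2 fell (7.51%), and in 48 h GFP-guide cells 2 of 12 rose and 3 fell (14.9%). *Egfl6* was not among the genes called higher in no-Cre or 48 h GFP-guide cells.

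With β-catenin removed in high CHIR *Tnc* rose by 4.01 with Cre and by 2.71 with Cas9, and *Frem2* fell (log2FC -2.77 and -1.43). Osteopontin (*Spp1*) rose with Cre (1.87, adjusted p = 0.0343) and vitronectin (*Vtn*) with Cas9, from a mean of 1.603 to 89.6 counts (adjusted p = 0.004885), so that 2 of 13 rose and 1 fell in each system, against 8.65% and 5.09% of all genes called. Medians of the list were 0.53 and 0.11, those of all genes -0.02 and -0.00018. In low CHIR none of the list was called in either system. In QKO cells 1 of 12, *Tnc*, rose in high CHIR (1.78, adjusted p = 0.000557; 2.54% of all genes called), and none was called in low CHIR. For high against no CHIR in wild-type cells 3 of 13 rose and 3 fell, against 23.4% of all genes, *Egfl6* and *Frem2* by the most upward, and for no against low CHIR none was called.

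Of 18 other integrin subunit genes 10 or 11 could be tested. In wild-type high against low CHIR 1 of 11 rose, near the 10.4% of all genes called. It was *Itgb3*, from a mean of 14.04 to 184 counts (log2FC 3.54, adjusted p = 0.00293), and none fell. Against no CHIR 3 of 11 were called, near the 23.4% of all genes, with *Itgb3* higher and *Itga2b* and *Itgb6* lower. In the controls high CHIR lowered *Itga2b* in each set, *Itgb4* in 24 h GFP-guide cells, and raised *Itga1* from 139 to 542 counts in 48 h GFP-guide cells (1.95, adjusted p = 0.0188). That made 1 of 10, 2 of 10 and 2 of 11, against 8.05%, 7.51% and 14.9% of all genes. Removal of β-catenin in high CHIR raised *Itga5*, a fibronectin receptor subunit, with Cre (0.86, adjusted p = 0.0151) and Cas9 (0.76, adjusted p = 0.0457), and *Itgb4* with Cas9, so that 1 and 2 of 10 were called against 8.65% and 5.09%. None of this list was called in low CHIR after removal, in QKO cells, or for no against low CHIR.

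Of 22 genes of integrin activation and adhesion 22 could be tested in wild-type cells and 21 elsewhere. *Parva*, which encodes an actin-binding partner of integrin-linked kinase, was called lower in high CHIR in all 3 sets of controls, with log2FC of -1.05, -1.12 and -1.12, and against no CHIR in wild-type cells (-0.93). It rose on removal of β-catenin in high CHIR (1.12 with Cre, 0.90 with Cas9) and in QKO cells in high CHIR (0.77, adjusted p = 0.014). With Cre 5 of 21 rose and none fell, against 5.9% of all genes called higher (list median 0.42, all genes -0.02). These included *Tns3*, tensin 3 (1.93, adjusted p = 0.00379), *Vcl*, vinculin (1.84, adjusted p = 0.0359), and *Tns1*, tensin 1 (1.22, adjusted p = 0.0339). With Cas9 in high CHIR only 1 of 21 rose and none fell, against 5.09% of all genes called (list median 0.34). In QKO cells in high CHIR 1 of 21 rose and none fell, against 2.54% (list median 0.18). In wild-type high against low CHIR 4 of 22 were called, against 10.4% of all genes. Those that rose were 3, the tetraspanins *Cd151* and *Cd9* and the focal adhesion kinase gene *Ptk2*, and *Parvb* fell. Called in the remaining comparisons were 1 of 22 for no against low CHIR (*Cd151*, higher, with 4.97% of all genes called) and 7 of 22 for high against no CHIR (2 higher and 5 lower, with 23.4%). In the controls *Parva* was the 1 of 21 called in no-Cre and in 24 h GFP-guide cells, and in 48 h GFP-guide cells 2 of 21 were called lower, *Parva* and the paxillin gene *Pxn*, against 14.9% of all genes. None was called in low CHIR after removal or QKO.

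*Gdnf*, the gene known to depend on α8β1 integrin in the mesenchyme, was not called in any of the 15 comparisons. Its counts in wild-type cells were 126 to 201 in low CHIR and 50.4 to 94.4 in high CHIR, which do not overlap (log2FC -1.02, adjusted p = 0.0743). In the other sets it had 157 to 1112 counts over all groups. In high CHIR it had 249 to 487 counts after β-catenin removal against 645 to 942 in intact cells, with adjusted p of 0.324 with Cre and 0.417 with Cas9.

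The 5 genes whose pattern over the 36 libraries was most like that of *Itga8*, by Pearson r of log2 values centred within each table, were *E030013I19Rik* (r = 0.94), *Naaa* (0.91), *Wnk4* (0.90), *Zcwpw1* (0.88) and *Gm10824* (0.87), out of 11712 genes. Libraries of a group share their treatment, so these are descriptions. *E030013I19Rik* is the antisense gene that shares 372 exon bases with *Itga8*. It had 597, 522 and 642 counts in wild-type low CHIR and 115, 50.3 and 14.02 in high CHIR, the same order of high CHIR replicates as *Itga8*. It had 127 and 127 counts in Cre cells in high CHIR against 889 and 757 in no-Cre cells, and 257 and 258 in Ctnnb1-guide cells against 927 and 883 in 24 h GFP-guide cells. Within the tables its r with *Itga8* was 0.98 over 9 wild-type, 0.89 over 16 β-catenin and 0.86 over 11 Tcf/Lef libraries. The genes most like *Npnt* were *Pcsk5* (0.74), *Mia3* (0.72), *Gfpt1* (0.68), *Maf* (0.65) and *Trp53inp2* (0.64), and that of *Gfpt1* was 0.015 within the Tcf/Lef table.

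**Figure D5:**
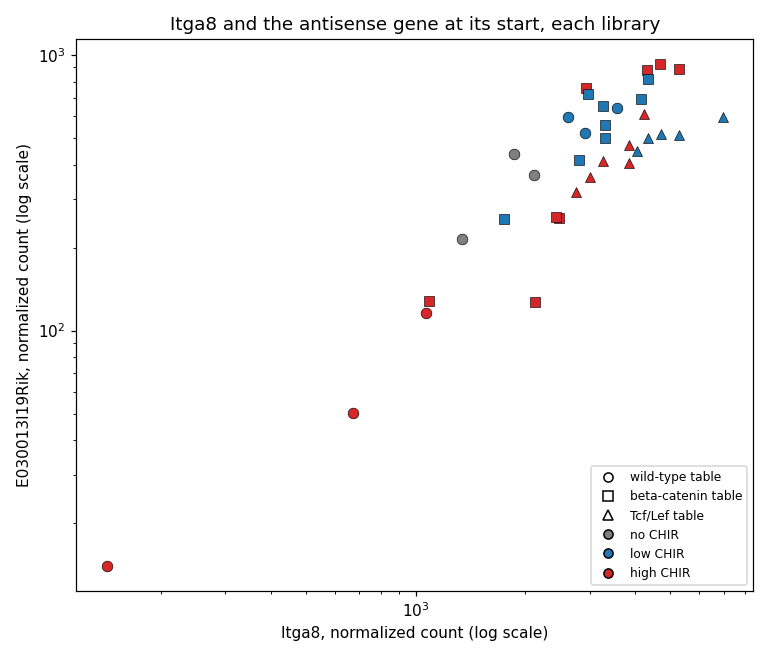
Normalized counts of *Itga8* (horizontal, log scale) and of the antisense gene *E030013I19Rik* (vertical, log scale) in each of the 36 libraries. Color is the CHIR dose and shape the table. The 3 wild-type high CHIR libraries lie lowest in both, and Cre cells in high CHIR, at 127 and 127, are lowest in *E030013I19Rik* within the β-catenin table.

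Among the 9 genes, over the 36 libraries centred within tables, r was highest for *Itgav* with *Itgb1* (0.82), *Itgav* with *Itgb5* (0.73) and *Itga9* with *Itgb5* (0.72). It was lowest for *Itga8* with *Itga6* (-0.65) and *Itga3* with *Itgb5* (-0.59). *Itga8* and *Npnt* had an r of -0.47. These values describe how the genes moved over the doses and treatments, which the libraries share.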

How the data were processed

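RNA-seq of 36 NPC libraries was read from 3 tables. The authors aligned reads to GRCm38 with STAR and counted them per gene with featureCounts, as the submitters' processing notes and the methods state, and DESeq2 normalized counts were deposited, an expression signal per gene that is no longer a raw count. Whether counting used strand is not given in the sources used here. 8 tables of the authors' own comparisons (fold changes and p-values) were not used, nor were 50 further columns of per-sample values.

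Values were tested as log2(normalized count + 1) with limma 3.58.1 (trend, R 4.3.3), a mean for each group over all libraries of a table, for genes with a mean of at least 10, with Benjamini-Hochberg adjustment over all genes tested. Fold changes on this scale understate the change of low genes. A gene was called at an adjusted p under 0.05 and an absolute log2 fold change of at least 0.5. Each normalized column held whole multiples of a step to within 0.01 reads, so whole reads were recovered (13089780 to 76071568 per library) and tested with edgeR 4.0.16 and DESeq2 1.42.0 as alternatives. The step was close to 1 in 3 libraries, which were left out of those tests (24 h GFP guide low CHIR replicate 1, Cre high CHIR replicate 1, 48 h GFP guide high CHIR replicate 2), so that 9, 14 and 10 libraries entered. The procedures were tested on simulated data.

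The other alternatives were a pseudocount of 0.5, no filter, TMM rescaling, only the groups compared, a log2 limit of 1, the replicate number as a block, and each library left out. In the Tcf/Lef table every pair of same-numbered libraries deviated together (r from 0.21 to 0.64), so numbers were taken as pairing libraries there. The values reported for this set nevertheless come from fits without the pairing, except where the block is named. No 2 libraries of a group agreed within sampling noise. The members and gene lists were chosen with earlier results of these data known. Besides the 9 genes, the genes named were, by rule, up to 4 called genes of a list with the largest change in a comparison, and the 5 genes most like *Itga8* and *Npnt* among genes with a mean of at least 50 in each table. *Gdnf* and cell type markers were listed apart. The values of one marker gene are not reported here.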

Additional observations from a re-analysis of the deposited data

How the results depend on the processing

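Of the 1854 values of single genes under an alternative, 1665 kept their sign and their side of the threshold, 44 passed it where the reported value did not, 60 no longer passed and 85 changed sign. None of those that changed sign came from a called value. Counts of called genes among the 9 moved by over 1.5 times as follows, and the cause was not tested. For removal of β-catenin by Cas9 in high CHIR the 2 became 6 with the compared groups only, 6 by DESeq2, 4 by edgeR and 6 with the replicate block, and 0 to 1 when a library was left out. For Cre in high CHIR the 6 became 2 with the compared groups only and 3 to 5 with a library left out. For Cre in low CHIR the 0 became 1 by DESeq2 and 1 with the block. For the interaction of Cre with CHIR the 0 became 1 by DESeq2, 2 with the block and 0 to 1 with a library left out. For no against low CHIR the 0 became 2 with the compared groups only, 2 by DESeq2, 1 by edgeR and 1 after TMM rescaling. For high against low CHIR the 4 in no-Cre cells became 1 with the compared groups only and 1 to 2 with a library left out, the 3 in 24 h GFP-guide cells became 5 with the block and 1 to 2 with a library left out, and the 4 in 48 h GFP-guide cells became 2 to 5 with a library left out. Same-numbered libraries correlated in their deviations from the group means at -0.016 to 0.27 in the wild-type table. In the β-catenin table r was 0.33 to 0.52 within the Cre system, 0.12 to 0.49 within the Cas9 system and -0.26 to 0.28 between them. With 2 numbers a group this is a hint from the data and not from the design, so the libraries were not treated as paired and the block values of both tables stand here only.

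Over all genes, counts of calls moved by over 1.5 times as well. With the replicate block they were 2562 against 1260 (24 h GFP guide, high against low), 2661 against 1350 (no Cre, high against low), 2133 against 854 and 21 against 9 (Cas9 removal, high and low CHIR), 2639 against 1452 and 513 against 55 (Cre removal), 526 against 167 and 235 against 87 (interactions with Cre and Cas9), and 1181 against 404, 16 against 1 and 136 against 20 (QKO in high CHIR, in low CHIR and its interaction). By DESeq2 they were 1788 against 865 (no against low CHIR), 1383 against 854 (Cas9, high CHIR), 258 against 55 (Cre, low CHIR), 300 against 167, 166 against 87 and 120 against 20 (interactions with Cre, Cas9 and QKO) and 25 against 1 (QKO, low CHIR). By edgeR they were 628 against 1260 (24 h GFP guide), 914 against 1452 (Cre, high CHIR), 0 against 9 (Cas9, low CHIR), 106 against 167 (interaction with Cre), 156 against 404 (QKO, high CHIR) and 11 against 20 (its interaction). With the compared groups only they were 1567 against 865 (no against low CHIR), 1728 against 854 (Cas9, high CHIR), 624 against 1452 and 4 against 55 (Cre), 49 against 167 (interaction with Cre), 552 against 1350 (no Cre), and 0 against 9 and 0 against 1 (Cas9 and QKO, low CHIR). A pseudocount of 0.5 and TMM each gave 0 against 9 (Cas9, low CHIR), no filter gave 4 against 1 (QKO, low CHIR), and a log2 limit of 1 gave 1568 against 2372 (48 h GFP guide), 2662 against 4070 (high against no CHIR) and 499 against 865 (no against low CHIR).

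Log2 fold changes that changed sign follow, with the reported value in brackets; the cause was not tested. For removal by Cas9 in low CHIR *Itga4* (-0.058) had 0.14 by DESeq2, 0.16 by edgeR and -0.40 to 0.28 with a library left out. *Itgav* (0.053) had -0.32 by DESeq2, -0.31 by edgeR and -0.33 to 0.43 with a library left out. *Itgb5* (0.16) had -0.14 to 0.45 with a library left out. *Npnt* (0.18) had -0.28 by DESeq2, -0.27 by edgeR and -0.32 to 0.68 with a library left out. For the interaction of QKO with CHIR *Itga4* (-0.25) had 0.32 by DESeq2, 0.35 by edgeR and -0.67 to 0.45 with a library left out. *Itga6* (-0.050) had 0.022 by DESeq2, 0.043 by edgeR and -0.56 to 0.23 with a library left out. *Itga8* (-0.17) had -0.51 to 0.17 with a library left out. *Itgav* (0.33) had -0.032 to 0.61 with a library left out. *Itgb1* (0.086) had -0.0086 with the replicate block and -0.083 to 0.21 with a library left out. For wild-type high against no CHIR *Itga4* (-0.58) had -1.11 to 0.41 with a library left out. *Itgb1* (0.023) had -0.011 by edgeR, -0.0035 after TMM rescaling and -0.13 to 0.11 with a library left out. For QKO in high CHIR *Itga6* (-0.21) had -0.72 to 0.064 with a library left out. *Itga8* (0.075) had -0.067 by DESeq2, -0.062 by edgeR and -0.069 to 0.24 with a library left out. *Itga9* (0.087) had -0.046 by DESeq2, -0.043 by edgeR and -0.13 to 0.37 with a library left out. *Itgav* (-0.097) had 0.00042 by edgeR and -0.46 to 0.096 with a library left out. *Itgb1* (-0.089) had 0.031 by DESeq2, 0.035 by edgeR and -0.26 to 0.039 with a library left out. *Itgb5* (-0.057) had 0.0040 by DESeq2, 0.0048 by edgeR and -0.41 to 0.14 with a library left out. For QKO in low CHIR *Itga6* (-0.16) had -0.41 to 0.070 with a library left out. *Itga8* (0.24) had -0.097 to 0.58 with a library left out. For wild-type no against low CHIR *Itga6* (-0.12) had -0.41 to 0.032 with a library left out. For no-Cre high against low CHIR *Itga8* (0.34) had -0.089 to 0.77 with a library left out. *Npnt* (0.83) had -0.21 to 1.86 with a library left out. For removal by Cre in high CHIR *Itga9* (0.33) had -0.31 to 0.98 with a library left out. For 24 h GFP-guide high against low CHIR *Itgb1* (-0.17) had -0.38 to 0.033 with a library left out. *Npnt* (-0.30) had -0.85 to 0.25 with a library left out. For the interaction of Cas9 with CHIR *Itgb1* (-0.02) had 0.18 by DESeq2, 0.19 by edgeR and -0.23 to 0.19 with a library left out. *Npnt* (-0.16) had 0.20 by DESeq2, 0.21 by edgeR and -0.71 to 0.39 with a library left out. For removal by Cre in low CHIR *Itgb5* (-0.03) had 0.0051 after TMM rescaling and -0.44 to 0.38 with a library left out. For removal by Cas9 in high CHIR *Npnt* (0.02) had -0.080 by DESeq2, -0.062 by edgeR and -0.53 to 0.57 with a library left out. For the interaction of Cre with CHIR *Npnt* (-0.66) had -1.70 to 0.38 with a library left out.

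With 2 or 3 libraries a group, small changes were not detectable, as the intervals beside the values show.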
